A study of Mus musculus with 12 samples.

Results

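The set comprised 42 genes of mitosis and cytokinesis, chosen by name for what their proteins do, with earlier results of these data known. Each name matched exactly 1 of the 24394 gene entries analysed in the deposited expression table, and all 42 passed the expression filter that left 10406 genes for testing (at least 1 RPKM in 3 or more libraries). RPKM, reads per kilobase of exon and per unit of sequencing depth, is a level scaled to the length of the gene and the depth of the library.

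The cells were Treg cells, the regulatory class of CD4 T cells that keeps immunity in check, sorted from C57BL/6 mice aged 7 weeks. The knockout (KO) genotype was Foxp3CreBatffl/fl, in which Cre made from the Treg gene Foxp3 deletes the floxed gene of Batf, an AP-1 family transcription factor, and the control was labelled WT. Stimulated cells were cultured for 48 h over anti-CD3 and anti-CD28 fixed to the plate (5 µg/ml), in the presence of the growth factor IL-2 (200 U/ml), and the other cells were left unstimulated. The groups were stimulated KO, stimulated WT, unstimulated KO and unstimulated WT, each with 3 polyA RNA-seq libraries. The labels do not say whether WT mice carried Cre, nor which animals the libraries came from, so every p-value rests on a spread among libraries that may be technical. In WT the libraries did not all come from the same animals, since libraries 1 and 2 held Y-linked transcripts that library 3 nearly lacked. How much of the spread lies between animals is not known.

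A cell that divides first copies its DNA and then makes the machinery that separates the copies. Cyclin B with CDK1, the Polo-like kinase PLK1 and the Aurora kinases start and steer mitosis. Kinetochores tie chromosomes to the spindle, a checkpoint holds the anaphase-promoting complex (APC/C) until every chromosome is attached, and the central spindle then guides the split into daughter cells. The genes are switched on together late in the cycle. In quiescent cells the DREAM complex, which contains the pocket protein p130, holds them off through a promoter motif called the cell cycle genes homology region (CHR), and in G2 and M phase B-MYB and FOXM1 act through the same motif. The CCAAT box, bound by NF-Y, commonly lies upstream of it. Most Treg cells of a mouse rest, and stimulation through the T cell receptor with IL-2 brings them into cycle.

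Because CHR motifs and CCAAT boxes are what these genes are known to share, their promoters were read from a RefSeq table (build GRCm38.p6, 250 bases before to 50 after each gene's start), which held 34 of the 42 members. The 120 bases before the start are shown 5′ to 3′ on the gene's strand for 6 members, with TTTGAA or its reverse TTCAAA (the CHR) and CCAAT or its reverse ATTGG in capitals. Ube2c heads the differences between genotypes, Espl1 was also higher in unstimulated KO cells, Cdk1 carries 2 CHR motifs in the stretch shown, and Cdc20 and Top2a are among the members that stimulation raised. Cdc25b is shown as 1 of the members without TTTGAA.
Ube2c, chr2:164769809-164769928, plus strand: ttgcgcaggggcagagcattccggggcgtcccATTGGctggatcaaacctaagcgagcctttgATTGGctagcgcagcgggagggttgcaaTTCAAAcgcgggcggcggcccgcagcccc
Espl1, chr15:102296173-102296292, plus strand: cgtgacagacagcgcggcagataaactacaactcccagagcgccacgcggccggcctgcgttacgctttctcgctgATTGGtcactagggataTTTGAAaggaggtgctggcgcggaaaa
Cdk1, chr10:69352913-69353032, minus strand: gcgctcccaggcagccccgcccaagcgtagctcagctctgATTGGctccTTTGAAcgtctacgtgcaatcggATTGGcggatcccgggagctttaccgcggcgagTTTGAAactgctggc
Cdc20, chr4:118437344-118437463, minus strand: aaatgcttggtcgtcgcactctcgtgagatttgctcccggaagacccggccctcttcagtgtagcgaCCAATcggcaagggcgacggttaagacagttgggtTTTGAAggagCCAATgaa
Top2a, chr11:99024190-99024309, minus strand: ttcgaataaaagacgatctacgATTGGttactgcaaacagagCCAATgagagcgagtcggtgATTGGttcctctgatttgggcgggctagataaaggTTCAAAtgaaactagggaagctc
Cdc25b, chr2:131186828-131186947, plus strand: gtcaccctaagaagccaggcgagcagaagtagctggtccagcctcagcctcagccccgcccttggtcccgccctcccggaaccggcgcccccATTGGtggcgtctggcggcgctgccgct

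Across the whole windows, on both strands, TTTGAA lay in 25 of 34 members (73.5%), against 20.2% of the 27025 genes in the table and 14.0% of the 7987 tested genes with a promoter. Among 31 S phase genes with a promoter, 4 had it (12.9%). With stimulation 25 of the 25 members with it rose in both genotypes, as did 7 of the 9 without it, Ccnb1 and Birc5 among them. The other 2 were Cdc25b and Pttg1. Since 40 of the 42 members rose in each genotype, almost any part of the set would show such counts. A link between the motif and the rise was not tested. A variant of the motif, TTCGAA, lay in 4 members (Bub1, Bub1b, Cdc25b and Top2a), or 11.8%, against 2.59% of tested genes. The matches clustered at the start site, since 23 members (67.6%) had TTTGAA within 50 bases of it, against 5.72% of all genes. CCAAT lay in 26 members (76.5%), against 41.1% of all genes, 43.3% of tested genes and 64.5% of the S phase genes, and 22 members held both motifs. The site that AP-1 dimers of the BATF family are known to bind, TGANTCA, lay in 0 of 34 member windows, against 8.97% of all genes, 5.66% of tested genes and 0 of 31 S phase genes. A match describes letters in a window and says nothing of binding, and N stands for any base. The RefSeq start was the same base as the outermost start in the expression table for 30 of 34 members, and differed by more than 50 bases for Kif2c and Pttg1.

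**Figure D1:**
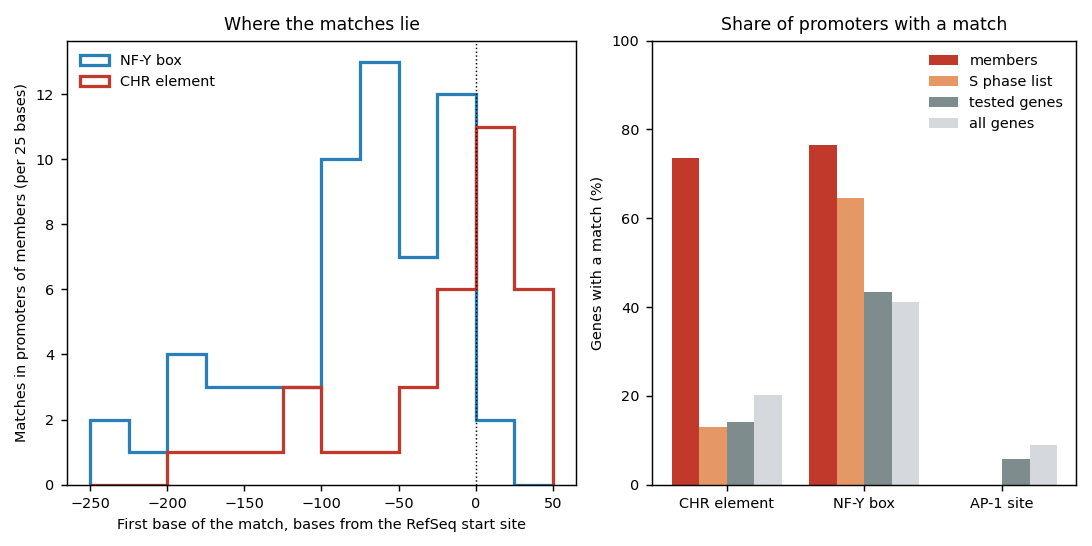
Left, the number of CHR (TTTGAA) and NF-Y box (CCAAT) matches in the promoters of 34 members per 25 bases, by distance of the first base of the match from the RefSeq start site. Right, the percentage of promoters with a match among members, S phase genes, tested genes and all genes. CHR matches lie around the start site and CCAAT boxes before it, and 73.5% of members hold a CHR against 14.0% of tested genes.

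Batf, the targeted gene (chromosome 12, 85686720 to 85709087), checked the labels. In stimulated cells it had 26.5, 21.2 and 18.0 RPKM in KO libraries 1 to 3, against 134, 125 and 128 RPKM in WT libraries. In unstimulated cells it had 46.9, 33.0 and 25.9 RPKM in KO, against 103, 93.3 and 90.0 RPKM in WT. The KO libraries were lower in both states, with reads left in every one, and the labels do not give the deleted exons.

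Several features of the libraries bear on what follows. In each state, WT libraries 1 and 2 held Y-linked transcripts (38.6 to 57.7 RPKM of Eif2s3y) that were nearly or fully absent from WT library 3 and all KO libraries (at most 0.0718 RPKM), so that sex and genotype are partly confounded. Between 22731823 and 32055383 reads were assigned per library, with at least 26153778 in stimulated and up to 26860948 in unstimulated libraries. The 6 Treg markers Foxp3, Il2ra, Ctla4, Ikzf2, Cd4 and Cd3e were present in every library. Without stimulation they summed to 743 to 870 RPKM in KO and 868 to 953 RPKM in WT. After stimulation the sums were 487 to 534 RPKM in KO and 739 to 820 RPKM in WT. Ctla4 differed most there, at 47.0, 55.4 and 50.5 RPKM in KO, against 190, 251 and 198 RPKM in WT. Foxp3, Il2ra, Ikzf2 and Cd4 were lower in stimulated KO by less, and Cd3e overlapped between genotypes. Ikzf2 was the lowest of the 6 markers, at 10.9, 8.76 and 8.06 RPKM in stimulated KO libraries. Markers of other cells were also present without stimulation, at lower sums. The 6 B cell markers summed to 43.7 to 90.7 RPKM in KO and 38.3 to 44.4 RPKM in WT. The 3 plasma cell markers summed to 31.1 to 49.8 RPKM in KO and 69.8 to 113 RPKM in WT, where Jchain alone reached 104 RPKM in library 3. The 8 myeloid markers summed to 20.0 to 22.3 RPKM in KO and 30.0 to 37.1 RPKM in WT. The 2 CD8 T cell markers (15.6 to 18.1 RPKM in KO, 15.2 to 16.9 RPKM in WT) and the 4 NK cell markers (4.43 to 9.67 RPKM in KO, 7.26 to 8.91 RPKM in WT) overlapped between genotypes. Markers of erythroid cells (3 of 5 at 0 in every library) and immature thymocytes (Rag2 at 0 in every library) stayed at or under 9.55 RPKM in sum. In these bulk samples a larger share of dividing cells and more RNA per cell cannot be told apart.

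In unstimulated cells, 11 of the 42 members were higher in KO than in WT and 0 were lower (limma, adjusted p under 0.05). Over all tested genes, 4.35% were higher and 5.83% were lower by the same test. The model takes the same spread for a gene in all groups, but the members varied more without stimulation than with it. For the members the pooled spread thus tends to be too small here and too large after stimulation, so the counts of the states are not on equal terms. The differences were small: the ratio of mean RPKM, KO over WT, had a median of 1.22 over the 42 members and ran from 0.809 for Anln to 1.60 for Ube2c. Of the 42 log2 differences 37 were positive, with a median of 0.25 against -0.02 over all tested genes. The 3 KO libraries lay above all 3 WT libraries for 12 members, a separation that 12.4% of all tested genes showed, and 0 members had the opposite order, shown by 15.5%. At an unadjusted p under 0.05, 23 members were higher and 0 lower, against 11.5% and 14.9% of tested genes on those sides.

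The 11 came from several roles, and the counts by role are small. They were 4 of 10 mitotic kinases and CDK regulators (Plk1, Aurkb, Ccnb1, Ccnb2), 2 of 3 chromosomal passenger partners (Birc5, Cdca8) and 3 of 7 checkpoint and anaphase genes (Bub1, Ube2c, Espl1). The rest were 1 of 8 centromere and kinetochore genes (Spc24) and 1 of 6 cytokinesis genes (Racgap1). Of 5 spindle motor and assembly genes and 3 genes of chromosome structure and transcription, 0 passed. Those 3 are Top2a, Mki67 and Foxm1, so the widely used proliferation marker Mki67 was not among the genes called. Its level was low and uneven, at 1.99, 3.07 and 0.984 RPKM in unstimulated KO libraries, against 2.49, 1.81 and 2.04 RPKM in WT. With a log2 difference of -0.10 ± 0.20 (SE), the test says little about Mki67.

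**Figure D2:**
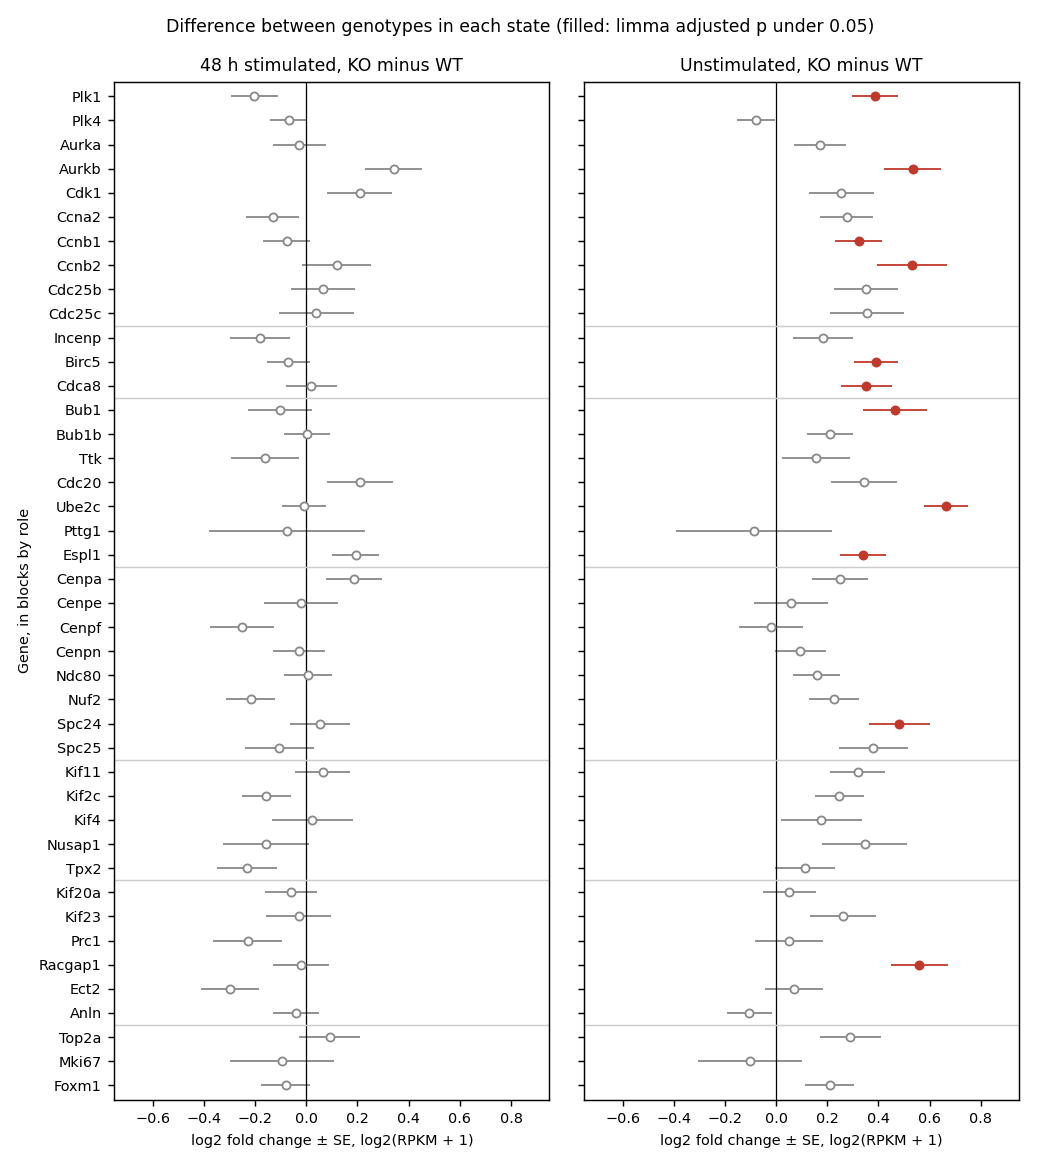
Difference between KO and WT for each of the 42 members, as log2 fold change ± SE on the log2(RPKM + 1) scale, after 48 h of stimulation (left) and without it (right), with genes in blocks by role. Filled red points passed limma's test at an adjusted p under 0.05. On the left 15 of 42 points lie right of 0 and 0 are filled, and on the right 37 lie right of 0 and 11 are filled.

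Ube2c, the ubiquitin-conjugating enzyme with which the APC/C marks cyclins and securin for destruction, showed the clearest difference. It lies on chromosome 2 from 164769929 to 164772902 (mm10, plus strand), and the promoter stretch shown above has a CHR 29 bases before the start and 2 CCAAT boxes. Without stimulation it had 68.9, 58.2 and 60.7 RPKM in KO libraries 1 to 3, against 36.8, 36.2 and 44.5 RPKM in WT libraries. All KO libraries were above all WT libraries. The WT library nearest to KO was library 3, in which Y-linked transcripts are nearly absent, as in the KO libraries. The estimate with a term for these transcripts is given below. The log2 difference was 0.66 ± 0.09 (SE), with a limma adjusted p of 0.000398.

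Racgap1, the GTPase-activating part of centralspindlin (chromosome 15, 99620496 to 99651656, minus strand), had 45.1, 33.6 and 30.7 RPKM in unstimulated KO libraries, against 23.6, 23.3 and 25.4 RPKM in WT. The KO libraries were all higher but spread widely, with library 1 well above the other KO libraries. The log2 difference was 0.56 ± 0.11 (SE), with a limma adjusted p of 0.00639. Its partner in centralspindlin, the motor Kif23, averaged 6.18 ± 1.35 RPKM in KO and 4.95 ± 0.66 RPKM in WT (SD, n = 3 each) and did not pass.

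Aurkb, the kinase of the chromosomal passenger complex (chromosome 11, 69045643 to 69051662, plus strand), had 27.7, 20.1 and 24.1 RPKM in unstimulated KO libraries, against 16.6, 14.4 and 17.4 RPKM in WT. Its log2 difference was 0.53 ± 0.11 (SE), with a limma adjusted p of 0.00977. Of its partners in the complex, Birc5 (survivin) had 17.7, 13.6 and 14.2 RPKM in KO, against 11.2, 11.7 and 10.9 RPKM in WT. Birc5 was higher in every KO library (log2 difference 0.39 ± 0.08 (SE), limma adjusted p = 0.0117). Cdca8 (borealin) had 24.9, 19.6 and 17.3 RPKM in KO, against 16.8, 15.0 and 15.5 RPKM in WT, with a limma adjusted p of 0.0405. Incenp, the scaffold of the complex, averaged 11.1 ± 2.35 RPKM in KO and 9.52 ± 0.38 RPKM in WT (SD, n = 3 each) and did not pass, so 3 of the 4 subunits were called.

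Among the other regulators of mitotic entry, Plk1 (chromosome 7, 122159437 to 122169875, plus strand) had 17.9, 17.7 and 14.4 RPKM in unstimulated KO libraries, against 13.8, 11.3 and 12.3 RPKM in WT. The lowest KO library was only slightly above the highest WT library, and the limma adjusted p was 0.0174. Ccnb2, a B-type cyclin that activates CDK1, had 45.1, 33.7 and 31.8 RPKM in KO, against 29.5, 20.5 and 25.5 RPKM in WT (limma adjusted p = 0.0253). The other B-type cyclin of the set, Ccnb1, had 18.7, 16.5 and 15.1 RPKM in KO, against 11.2, 13.8 and 14.6 RPKM in WT (limma adjusted p = 0.0411). Both cyclins were higher in all KO libraries, by a margin that for Ccnb1 was small between KO library 3 and WT library 3. Cdk1 itself averaged 16.8 ± 3.19 RPKM in KO and 13.9 ± 2.07 RPKM in WT (SD, n = 3 each) and did not pass.

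Bub1, a kinase of the spindle checkpoint, had 6.67, 6.23 and 4.76 RPKM in unstimulated KO libraries, against 4.26, 3.39 and 4.29 RPKM in WT (limma adjusted p = 0.0335). Espl1 (separase), the protease that cuts cohesin at anaphase, had 3.57, 3.42 and 3.09 RPKM in KO, against 2.27, 2.36 and 2.72 RPKM in WT (limma adjusted p = 0.0328). Spc24, a subunit of the NDC80 complex that binds microtubules, had 17.3, 11.1 and 13.6 RPKM in KO, against 10.4, 8.48 and 9.96 RPKM in WT (limma adjusted p = 0.0217). In all 3 genes the KO libraries lay above the WT libraries. The other NDC80 subunits Ndc80, Nuf2 and Spc25 had positive differences that did not pass, of 0.16, 0.23 and 0.38 on the log2 scale.

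The remaining members that are abundant in their role did not pass in unstimulated cells. Ccna2, the cyclin of S and G2 phase, had 49.8, 42.8 and 34.9 RPKM in KO, against 37.0, 32.0 and 34.9 RPKM in WT, and the groups overlapped. Cdc20, the APC/C activator of early anaphase, had 27.7, 20.6 and 22.1 RPKM in KO, against 19.9, 15.0 and 20.0 RPKM in WT. Its KO libraries were all higher, yet the limma adjusted p was 0.109. Top2a, the topoisomerase that untangles sister chromatids, had 32.4, 28.5 and 21.0 RPKM in KO, against 21.4, 20.6 and 23.4 RPKM in WT, and Nusap1, a spindle protein that binds microtubules, had 23.4, 20.7 and 13.8 RPKM in KO, against 16.3, 12.1 and 15.9 RPKM in WT. Cenpa, the histone H3 variant that marks centromeres, had 41.9, 33.9 and 42.9 RPKM in KO, against 31.4, 34.0 and 33.6 RPKM in WT. In these 3 genes at least 1 KO library fell within the WT range or below it. The 5 members with a negative difference were Plk4, Cenpf, Anln, Mki67 and Pttg1, from -0.02 for Cenpf to -0.10 for Anln on the log2 scale.

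**Figure D3:**
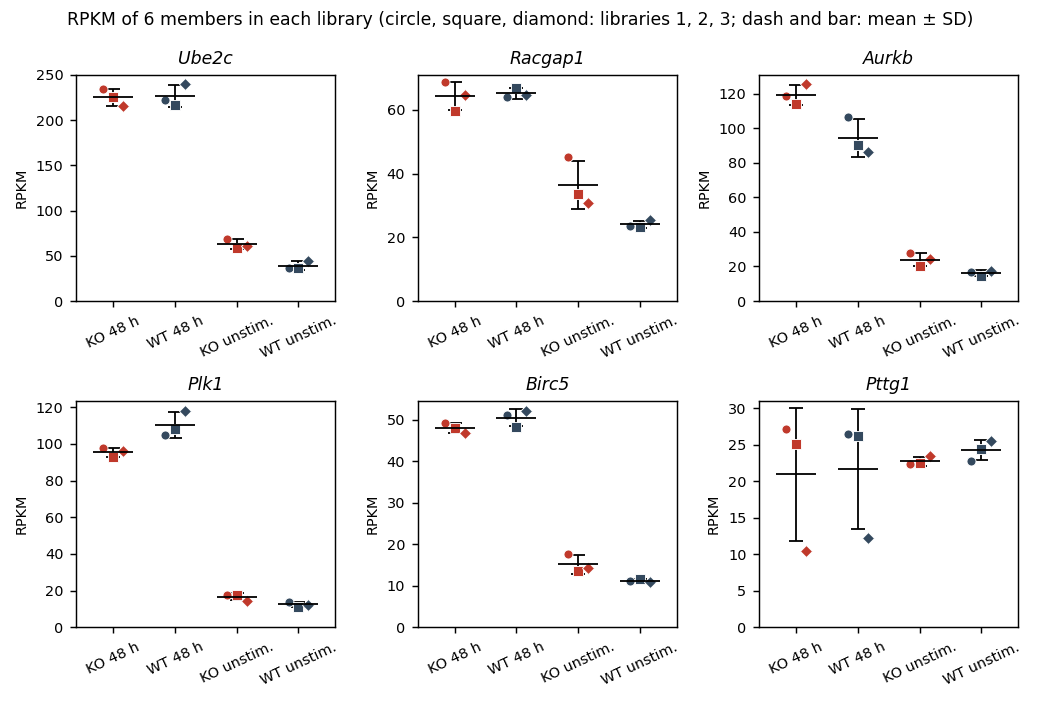
RPKM of Ube2c, Racgap1, Aurkb, Plk1, Birc5 and Pttg1 in each of the 12 libraries, with circles, squares and diamonds for libraries 1, 2 and 3 of a group, and the mean ± SD (n = 3) as a dash and bar. In the first 5 genes the unstimulated KO libraries lie above the unstimulated WT libraries, and Pttg1 in library 3 of both stimulated groups (10.5 RPKM in KO, 12.2 RPKM in WT) lies far below the other stimulated libraries.

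The unstimulated KO libraries did not move as a block. KO library 1 was the highest of the 3 KO libraries for 25 of 42 members and KO library 3 the lowest for 30, while among WT libraries number 2 was the lowest for 31. Over all tested genes the shares in those 3 positions were 33.9%, 42.6% and 35.2%. The summed RPKM of the 42 members was 708, 599 and 552 in KO libraries 1 to 3, against 495, 446 and 509 in WT libraries. The ratio of that sum to the summed RPKM of 39 S phase genes was 0.517, 0.442 and 0.420 in KO, against 0.400, 0.386 and 0.427 in WT, so that KO library 3 fell below WT library 3. The B cell marker Cd79b was also highest in KO library 1, at 65.8, 31.4 and 33.8 RPKM in KO libraries 1 to 3, against 27.2, 25.7 and 26.3 RPKM in WT, and the part of other cells in the difference was not tested. Without KO library 1 in the unstimulated group 4 members stayed past the threshold, without KO library 3 there were 19, and without WT library 1, 2 or 3 there were 7, 4 and 5.

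The count also depended on the libraries with Y-linked transcripts. With a term for these transcripts in the model 4 members were called, Ube2c, Racgap1, Aurkb and Birc5, with log2 differences of 0.53, 0.53, 0.54 and 0.39. Without the 4 libraries that hold them, which leaves 1 WT library in each state, 0 members passed by limma. The estimates then were 0.48 for Ube2c (adjusted p = 0.0975), 0.48 for Racgap1 and 0.42 for Aurkb. A lone WT library is assumed there to vary like the other groups. With the 6 unstimulated libraries fitted alone, so that the spread came from them only, 3 members passed. Of 25 alternatives, Ccnb1 lost its call under 17, Cdca8 under 16, Bub1 under 13, Espl1 under 10, Ccnb2 under 8, Plk1 and Spc24 under 7 each, and Birc5 under 3. Ube2c, Racgap1 and Aurkb each lost it under 1.

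After 48 h of stimulation 0 of the 42 members differed between KO and WT in either direction (limma, adjusted p under 0.05), where 7.76% of all tested genes were higher and 9.81% lower in KO. At an unadjusted p under 0.05, 1 member was higher and 3 were lower, against 15.8% and 17.5% of tested genes, and limma-voom on reads recovered from the table called 1 higher (Aurkb) and 1 lower (Ect2). The ratio of mean RPKM, KO over WT, had a median of 0.972 and ran from 0.712 for Cenpf to 1.27 for Aurkb. The median log2 difference was -0.03, and 15 of the 42 were positive, or 20 after median-ratio rescaling. The 3 KO libraries lay above all WT libraries for 3 members (19.7% of tested genes) and below them for 9 (22.1%). The spread in the main test is shared with the unstimulated libraries, where the members varied more. A member that did not pass may therefore still differ. With the stimulated libraries fitted alone, members passed on both sides, as counted below.

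Aurkb came nearest to the threshold on the higher side, with 118, 114 and 125 RPKM in stimulated KO libraries, against 107, 90.2 and 86.0 RPKM in WT. The KO libraries were all higher, by 0.34 ± 0.11 (SE) on the log2 scale, with a limma adjusted p of 0.0511. The adjusted p ran from 0.0172 with limma-voom to 0.406 over the alternatives tried, and 9 of 25 of them put Aurkb past the threshold. Ect2, which activates RhoA at the cleavage furrow, averaged 21.3 ± 0.56 RPKM in KO and 26.4 ± 2.05 RPKM in WT (SD, n = 3 each), with a limma adjusted p of 0.0844 and of 0.0279 with limma-voom. Among the cyclin genes, Ccna2 had 185, 185 and 182 RPKM in KO, against 189.9, 199.6 and 217 RPKM in WT, and Ccnb1 had 86.8, 84.9 and 82.0 RPKM in KO, against 89.0, 87.3 and 91.4 RPKM in WT. For both cyclins the KO libraries lay below all WT libraries, an order that 22.1% of tested genes showed. Neither passed (limma adjusted p = 0.397 for Ccna2 and 0.593 for Ccnb1). The cyclin gene Ccnb2 had the opposite sign, averaging 78.3 RPKM in KO and 71.8 RPKM in WT, with overlapping groups (limma adjusted p = 0.568).

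Ube2c had 234, 225 and 215 RPKM in stimulated KO libraries, against 222, 217 and 240.1 RPKM in WT, so that its unstimulated difference had no counterpart at 48 h. Racgap1 likewise overlapped, with 68.7, 59.7 and 64.5 RPKM in KO, against 63.9, 67.0 and 64.6 RPKM in WT. Plk1 had 97.7, 92.9 and 96.1 RPKM in KO, against 105, 108 and 118 RPKM in WT, and all KO libraries were lower (limma adjusted p = 0.137). Birc5 had 49.1, 47.9 and 46.8 RPKM in KO, against 51.1, 48.1 and 52.0 RPKM in WT, and Bub1 had 18.1, 15.9 and 15.8 RPKM in KO, against 15.3, 19.1 and 19.5 RPKM in WT. Both overlapped between genotypes. Spc24 had 46.9, 47.5 and 47.8 RPKM in KO, against 45.5, 45.7 and 45.7 RPKM in WT. It was higher in every KO library, at a ratio of means of 1.04 that did not pass (limma adjusted p = 0.788). Its SD was 0.47 RPKM in stimulated KO and 0.08 RPKM in stimulated WT, against 3.12 and 1.02 RPKM without stimulation. The test pools the spread of both states, so this p-value does not measure the spread at 48 h alone.

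**Figure D4:**
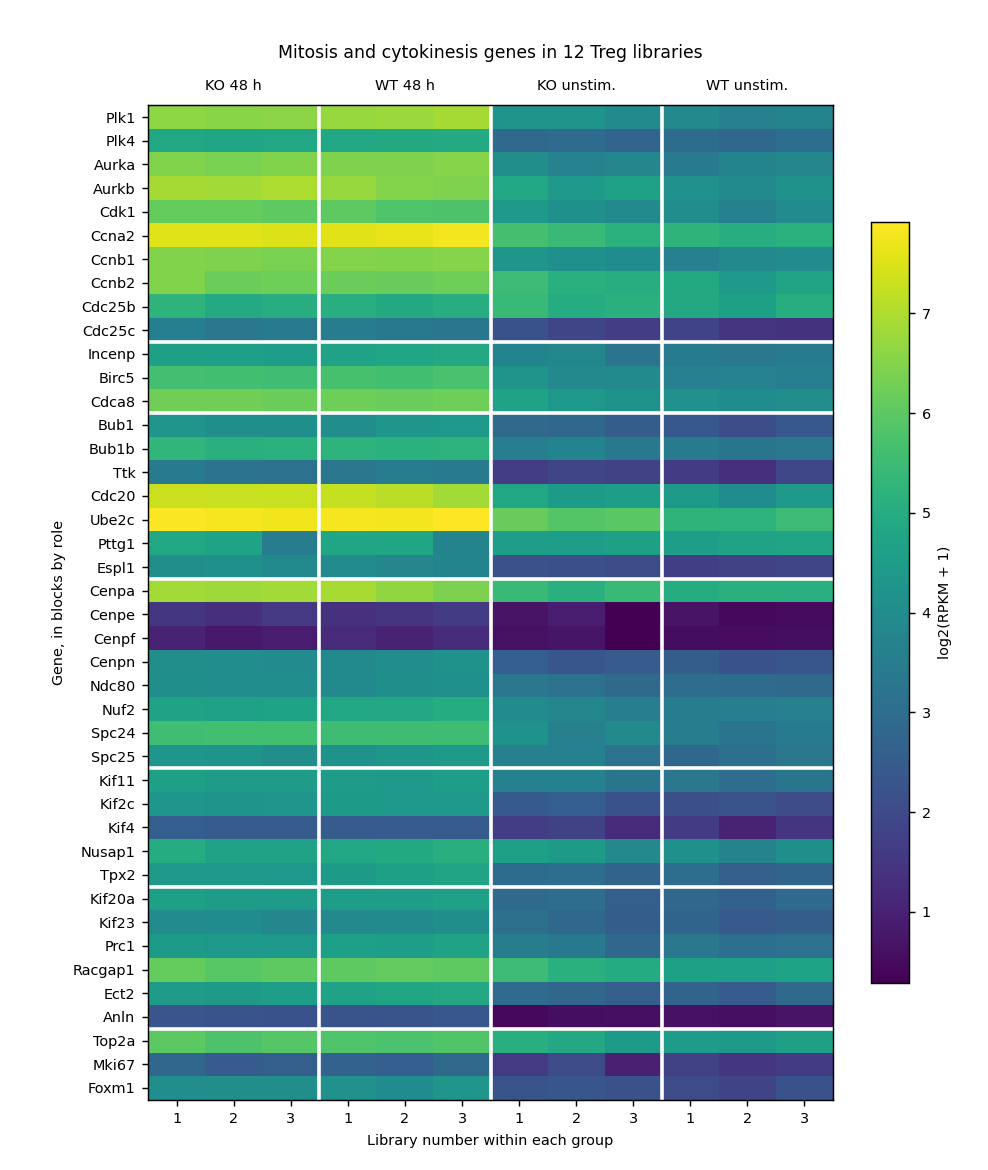
Level of each of the 42 members in each of the 12 libraries, as log2(RPKM + 1) in colour, with genes in blocks by role and libraries in blocks by group. The 6 stimulated libraries on the left are brighter than the 6 unstimulated ones on the right for all members but Cdc25b and Pttg1, and Pttg1 is dark in library 3 of both stimulated groups.

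Stimulation raised 40 of the 42 members in each genotype and lowered 0 (limma, adjusted p under 0.05). By the same test 44.3% of all genes rose and 34.6% fell in KO, and 44.5% rose and 35.4% fell in WT. The ratio of mean RPKM, stimulated over unstimulated, had a median of 3.24 in KO and 3.89 in WT. The median log2 change over the members was 1.51 in KO and 1.79 in WT, beside 0.12 and 0.11 over all tested genes. The 2 contrasts use different libraries, and the 2 members that did not pass were Cdc25b and Pttg1 in both. Seen the other way, the unstimulated level was a median of 30.8% of the stimulated level in KO and 25.7% in WT.

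As log2(RPKM + 1) differences, which come out too small for genes of low level, the changes with stimulation were led by kinases, cyclins and the APC/C activator. Plk1 had the largest change in WT on that scale, averaging 110.2 ± 7.02 RPKM in stimulated and 12.5 ± 1.26 RPKM in unstimulated libraries (SD, n = 3 each), a log2 change of 3.05 ± 0.09 (SE). In KO it averaged 95.5 ± 2.45 RPKM in stimulated and 16.6 ± 1.99 RPKM in unstimulated libraries, a log2 change of 2.46 ± 0.09 (SE). Cdc20 had 157, 153 and 154 RPKM in stimulated KO libraries and 151, 138 and 114 RPKM in stimulated WT libraries, and changed by 2.68 in KO and 2.81 in WT on the log2 scale. Aurka, the kinase of centrosome maturation, had 87.3, 82.4 and 88.3 RPKM in stimulated KO, against 15.8, 11.7 and 12.7 RPKM in unstimulated KO. In WT, Aurka had 86.1, 85.8 and 91.0 RPKM with stimulation, against 10.1, 12.3 and 12.8 RPKM without. The Aurka levels of the genotypes overlapped in both states, and the differences between genotypes did not pass. Ccnb1 changed by 2.27 in KO and 2.67 in WT on the log2 scale.

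Other members rose less. Ccnb2 had 87.2, 73.0 and 74.7 RPKM in stimulated KO and 72.5, 69.2 and 73.7 RPKM in stimulated WT, a log2 change of 1.08 in KO and 1.49 in WT. Top2a had 62.6, 54.3 and 59.4 RPKM in stimulated KO and 55.5, 53.0 and 56.5 RPKM in stimulated WT, and Cenpa had 116, 111 and 115 RPKM in KO and 119, 99.6 and 84.5 RPKM in WT. Cdca8 had 76.2, 75.2 and 72.3 RPKM in stimulated KO and 74.2, 71.8 and 74.6 RPKM in stimulated WT, with the groups overlapping. Espl1, the least abundant of the 11 genes that were higher in unstimulated KO, had 15.7, 16.5 and 14.3 RPKM in stimulated KO and 14.7, 13.2 and 12.4 RPKM in stimulated WT. Nusap1 had 31.2, 24.8 and 24.6 RPKM in stimulated KO and 27.3, 29.5 and 33.3 RPKM in stimulated WT, a log2 change of only 0.48 in KO and 0.98 in WT. In KO the Nusap1 call was lost without unstimulated library 3 or without stimulated library 1 (adjusted p at most 0.0922 over all alternatives).

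The lowest levels after stimulation belonged to Cenpf and Cenpe. Cenpf, a large kinetochore protein, had 1.06, 0.77 and 0.825 RPKM in stimulated KO and 1.28, 1.04 and 1.41 RPKM in stimulated WT. Without stimulation Cenpf had 0.534, 0.641 and 0.221 RPKM in KO, against 0.469, 0.454 and 0.499 RPKM in WT. Cenpe, the kinetochore motor that moves chromosomes to the spindle equator, had 1.82, 1.48 and 1.96 RPKM in stimulated KO and 1.62, 1.73 and 2.04 RPKM in stimulated WT. Its unstimulated values were 0.615, 0.816 and 0.228 RPKM in KO, against 0.624, 0.365 and 0.439 RPKM in WT. Both rose with stimulation in both genotypes, but at these levels the log2(RPKM + 1) scale understates change: the Cenpe mean was 3.17 times as high with stimulation in KO and 3.77 times in WT, for log2 changes of 0.84 and 0.92. In KO the Cenpf call was lost without unstimulated library 3, without stimulated library 1 or without library 1 of both states.

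Anln, the anillin scaffold of the cleavage furrow, averaged 3.77 ± 0.11 RPKM in stimulated and 0.457 ± 0.081 RPKM in unstimulated KO libraries (SD, n = 3 each). In WT, Anln averaged 3.90 ± 0.16 RPKM with stimulation and 0.565 ± 0.059 RPKM without. Its ratio of 8.25 in KO was the largest of any member there, and in WT it was 6.91. Across the 42 members the Spearman correlation of exon length with mean level was between -0.63 and -0.59 in the 4 groups, as a description over genes that share the same libraries, beside -0.29 to -0.25 over the 10406 tested genes. The 3 members above 7000 bases of exon are Cenpe, Cenpf and Mki67, and the cause of their low values was not tested.

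Of the 2 members that stimulation did not change by the test, Cdc25b, the phosphatase that switches on CDK1 at mitotic entry, was already abundant without stimulation. It had 37.1, 29.7 and 32.1 RPKM in stimulated KO, against 42.7, 31.3 and 33.9 RPKM in unstimulated KO. In WT it had 33.1, 29.4 and 31.6 RPKM with stimulation, against 28.8, 23.5 and 31.6 RPKM without. The groups overlapped in both genotypes. Its relative Cdc25c averaged 9.83 ± 0.90 RPKM in stimulated and 2.82 ± 0.75 RPKM in unstimulated KO (SD, n = 3 each), and rose in both genotypes.

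Pttg1 (securin, the inhibitor of separase) had 27.2, 25.2 and 10.5 RPKM in stimulated KO, against 22.3, 22.5 and 23.5 RPKM in unstimulated KO. In WT it had 26.5, 26.3 and 12.2 RPKM with stimulation, against 22.8, 24.4 and 25.5 RPKM without. Library 3 of each stimulated group was low and the others were slightly above the unstimulated libraries. A search made after these values were seen, over 8297 genes with a mean of at least 3 RPKM, found Pttg1 as the only gene whose library 3 lay more than 0.7 log2 units below the other 2 libraries in both stimulated groups. The gap to the lower of them was -1.19 in KO and -1.05 in WT. The RefSeq start of Pttg1 differed from the start in the table by 267 bases.

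The size of the stimulation change differed between genotypes for 3 members, all with a smaller rise in KO (limma interaction, adjusted p under 0.05). By that test 2.25% of all tested genes had a lower and 2.37% a higher change in KO. For Ube2c the stimulation change in KO minus that in WT was -0.67 ± 0.12 (SE, adjusted p = 0.0086), for Plk1 -0.59 ± 0.13 (adjusted p = 0.0214) and for Birc5 -0.46 ± 0.12 (adjusted p = 0.0478). Of the 42 interaction terms 38 were negative, with a median of -0.29 against 0.02 over all tested genes, and 14 had an unadjusted p under 0.05, against 9.45% of tested genes on that side and 10.1% on the other, where 0 members lay. All 3 genes were higher in unstimulated KO libraries. After stimulation Ube2c and Birc5 overlapped between genotypes. The Plk1 term also took in lower stimulated levels, since all stimulated KO libraries lay below WT (log2 difference -0.20, limma adjusted p = 0.137). Racgap1 (-0.58, adjusted p = 0.0521) and Bub1 (-0.57, adjusted p = 0.0969) had changes of a like size that did not pass. The interaction is built from the same libraries as the genotype contrasts and is no separate evidence. Without the libraries that hold Y-linked transcripts 0 members passed, with estimates of -0.57 for Ube2c, -0.70 for Plk1 and -0.55 for Birc5. Leaving out unstimulated KO library 3 gave 12 members, and leaving out unstimulated WT library 2 or 3, or library 2 or 3 of either stimulated group, gave 1. The Birc5 call was lost under 19 of 25 alternatives, among them a block that pairs the stimulated and unstimulated library of the same genotype and number (adjusted p = 0.0508), under which Racgap1 passed (adjusted p = 0.0263).

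**Figure D5:**
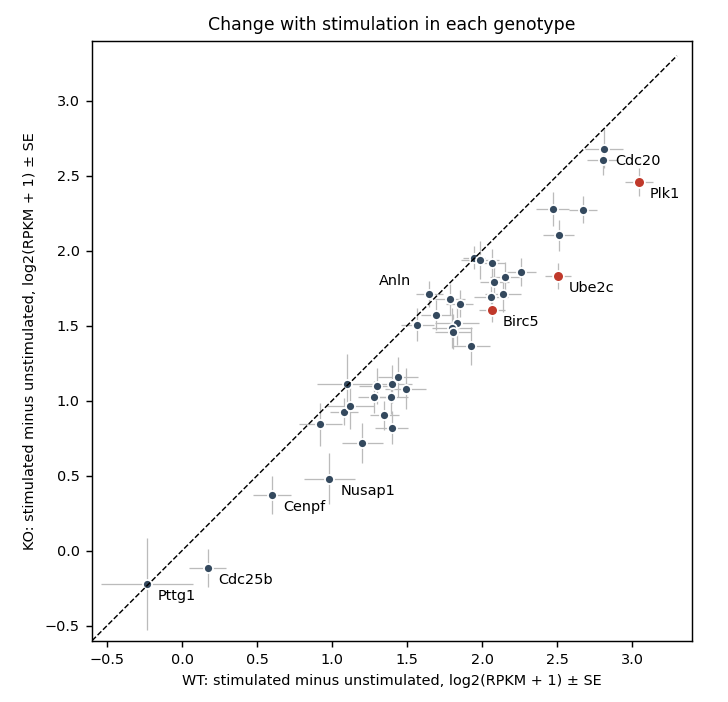
Change with stimulation on the log2(RPKM + 1) scale ± SE for each of the 42 members, in WT on the horizontal axis and in KO on the vertical axis, with the line of equal change dashed. Red points are Ube2c, Plk1 and Birc5, which passed the interaction test, and 38 of the 42 points lie below the line.

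Libraries of a group differed less for these genes after stimulation. The median coefficient of variation over the members was 4.03% in stimulated KO and 6.57% in stimulated WT, against 16.3% in unstimulated KO and 11.3% in unstimulated WT. Over all tested genes it was 6.27%, 9.14%, 11.3% and 7.34% in the same 4 groups, so that in WT it was not lower after stimulation. The summed RPKM of the members was 2031, 1926 and 1926 in stimulated KO, against 1972, 1923 and 1968 in stimulated WT, and its ratio to the S phase sum was 0.543 to 0.579 in KO and 0.552 to 0.577 in WT. Ube2c had the highest mean and Ccna2 the next in all 4 groups.

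Other lists of cell cycle genes were counted in unstimulated cells beside the 4.35% of all tested genes that were higher in KO and the 5.83% that were lower. In the DNA replication and S phase list 11 of 39 tested genes were higher in unstimulated KO and 0 lower, with a median log2 difference of 0.21. Among them, Cdt1, which licenses replication origins, averaged 19.2 ± 0.92 RPKM in KO and 13.3 ± 0.40 RPKM in WT, and Tk1, thymidine kinase, averaged 35.5 ± 4.85 RPKM in KO and 23.6 ± 1.58 RPKM in WT (SD, n = 3 each). The replication helicase subunit Mcm7 averaged 87.6 ± 1.09 RPKM in KO and 72.7 ± 4.19 RPKM in WT. All 3 passed with KO libraries above all WT libraries (limma adjusted p = 0.00111, 0.00304 and 0.00864). The share of the list called higher was 28.2%, beside 26.2% of the mitosis and cytokinesis members.

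Of other kinetochore and centromere genes 5 of 28 were higher in unstimulated KO and 0 lower, among them Nsl1, a subunit of the MIS12 complex (2.25 ± 0.16 RPKM in KO, 1.28 ± 0.29 RPKM in WT), Cenpb (35.9 ± 3.59 RPKM in KO, 26.6 ± 2.78 RPKM in WT) and Cenpp (7.63 ± 1.61 RPKM in KO, 4.59 ± 1.01 RPKM in WT). Of other mitotic kinases and CDK regulators 4 of 19 were higher and 0 lower. They included Cdca3, which averaged 28.3 ± 5.34 RPKM in KO and 18.0 ± 0.31 RPKM in WT, the kinase Melk and the CDK subunit Cks1b. Of other spindle, centrosome and midbody genes 3 of 31 were higher and 0 lower: Depdc1b, the chromokinesin Kif22 and Stmn1. Stmn1 (stathmin, which destabilises microtubules) averaged 114 ± 3.15 RPKM in KO and 86.1 ± 4.90 RPKM in WT.

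Of condensin and cohesin genes 2 of 20 were higher, the cohesin regulator Cdca5 and the condensin subunit Ncaph, and 0 lower, with a median of -0.03. Other checkpoint and APC/C genes had 2 of 25 higher and 0 lower, the subunit Anapc5 and Fzr1 (CDH1, the APC/C activator of late mitosis and G1), with a median of 0.05. The shares called higher in these 2 lists were 10% and 8%.

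The regulators of the programme split. Among 27 of them, unstimulated KO cells had 3 higher and 3 lower. E2f2, an E2F activator, averaged 37.7 ± 4.34 RPKM in KO and 21.3 ± 1.34 RPKM in WT (log2 difference 0.79, limma adjusted p = 6.75e-05). Rbl2, the p130 protein of the DREAM complex, averaged 21.6 ± 3.66 RPKM in KO and 35.4 ± 2.01 RPKM in WT (log2 difference -0.70, limma adjusted p = 0.00174). Nfyb, a subunit of the CCAAT-binding NF-Y, averaged 24.8 ± 1.87 RPKM in KO and 31.3 ± 0.78 RPKM in WT (log2 difference -0.33, limma adjusted p = 0.0101). In a quiescence list that shares Rbl2 with the regulators, 2 of 15 genes were higher, 3 lower and 10 not called. The 3 with the smallest adjusted p, which are the ones named here, all lay on the lower side. Besides Rbl2, the antiproliferative factor Btg1 averaged 194 ± 5.79 RPKM in KO and 229 ± 2.83 RPKM in WT, and the repressor Bcl6 averaged 2.58 ± 1.28 RPKM in KO and 5.61 ± 0.75 RPKM in WT. For all 3 the highest KO library was below the lowest WT library.

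After stimulation 7.76% of all tested genes were higher and 9.81% lower in KO. The regulators had 6 of 27 higher and 3 lower, and the quiescence genes 2 of 15 higher and 7 lower. The S phase list had 3 of 39 higher and 1 lower, other kinetochore genes 0 of 28 higher and 3 lower, and other spindle genes 0 of 31 higher and 2 lower. For the interaction, where 2.25% of all tested genes had a lower and 2.37% a higher change in KO, genes with a lower change included the condensin subunits Ncaph (-0.63) and Ncapg (-0.64), the kinetochore genes Cenph (-0.68), Cenpp (-0.81) and Pmf1 (-0.48), Kif22 (-0.49), Stmn1 (-0.42), Cdca3 (-0.75) and E2f1 (-0.55). In the quiescence list Tob1, an antiproliferative factor, had an interaction of -0.73, and Klf2, a factor of resting T cells, had one of 1.28 in the other direction. The S phase list had 0 of 39 genes past that test (13 lower and 0 higher at an unadjusted p under 0.05), and its median of -0.18 lay on the same side as the -0.29 of the members.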

How the data were processed

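RNA of 12 sorted Treg samples, 600 ng each, was made into strand-specific polyA libraries, per the labels' protocols. The submitters' processing notes name, without versions, STAR, featureCounts (Subread), DESeq2 and FastQC, and build mm10. Neither the counting's strand setting nor its annotation was stated, so reads of overlapping genes cannot be told apart. The authors deposited RPKM per gene and library. Of 24421 entries, 27 with a spreadsheet date as symbol were left out (0.185% to 0.284% of reads). Products of RPKM and exon length were whole reads within 0.01 for 100% of values and served limma-voom as an alternative.

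Tests were made on log2 values computed here from the deposited RPKM, as log2(RPKM + 1), with limma 3.58.1 (mean trend, R 4.3.3) because RPKM are not counts. One model had a mean for each of the 4 groups (12 libraries, 8 residual degrees of freedom). For each gene it took 1 spread shared by the 4 groups, although the members varied more without stimulation. P-values were adjusted by Benjamini-Hochberg over 10406 genes with at least 1 RPKM in 3 libraries, with a threshold of 0.05. The fit was run on simulated data with the same spread in every group. The pass rule there covered only folds larger than those of the members between genotypes. It therefore does not show how well differences of the size reported here are found. Members and lists were chosen with earlier results of these data known. Named members were those past the threshold in a genotype contrast or the interaction, the 4 largest and 4 smallest stimulation changes in WT, and the most abundant of each role. Members named beyond this complete a complex or a range and were chosen after their values were seen. From each other list at most 3 genes with the smallest adjusted p were named for the unstimulated contrast and for the interaction.

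Library numbers were taken to pair samples where all same-numbered deviations from group means correlate above 0.1. This held between stimulated and unstimulated KO libraries (0.274, 0.19 and 0.11) but not between genotypes. In WT only library 1 missed the bound (0.075, 0.134 and 0.146), and Y-linked transcripts lay under the same numbers in both states, so pairing there is not excluded. The main model had no pairs and so left out the pairing in KO. Fits with a replicate block by genotype and number are given below. Promoters were from RefSeq tables (GRCm38.p6).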

Additional observations from a re-analysis of the deposited data

Results flagged for a closer look

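The stimulation change differed between genotypes by a test of the difference itself (limma interaction) for 3 members, and that test is why they are given here. The change in KO minus that in WT was -0.67 for Ube2c, -0.59 for Plk1 and -0.46 for Birc5 on the log2 scale. No cause was tested.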

How the results depend on the processing

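Results were recomputed under up to 24 other settings and 2 chosen after seeing the data, as far as each applied and left the gene tested, and the intended count tests (edgeR and DESeq2) were not run because the table holds RPKM. The 40 rises with stimulation became 35 in each genotype under a mean filter of 5 RPKM, which tests fewer genes, and 39 in each when the 4 libraries holding Y-linked transcripts (the Y-positive libraries) were dropped. In KO they became 39 with the 6 libraries alone, 39 without library 1 of both states (added) and 41 without library 3 of both stimulated groups (added). With 1 library left out they numbered 38 to 40 in KO and 40 in WT. The 11 members higher in unstimulated KO became 7 with no filter, 3 with the 6 libraries on their own, 4 when Y-linked transcripts entered the model, 0 without the Y-positive libraries and 4 without KO library 1 of both states (added), and ran from 4 to 19 when 1 library was left out. Ube2c, Racgap1 and Aurkb lost their calls there only without the Y-positive libraries, and the other 8 lost theirs under 3 (Birc5) to 17 (Ccnb1) of 25 alternatives. The 0 members higher after stimulation became 1 with a pseudocount of 5, a mean filter of 5 RPKM, median-ratio rescaling, limma-voom or the 6 libraries alone, and 0 to 2 when 1 library was left out. The 0 lower became 1 with a pseudocount of 5, limma-voom or the Y-linked term, 2 with the 6 libraries alone, and 0 to 1 when 1 library was left out. The 3 interaction calls became 0 without the Y-positive libraries and 0 without library 3 of both stimulated groups (added), and ran from 1 to 12 when 1 library was left out. The Birc5 interaction was lost under 19 of 25 alternatives, Plk1 under 9 and Ube2c under 2. Leaving out library 3 of both stimulated groups turned the Pttg1 change to 0.19 in KO and 0.12 in WT. These libraries were left out because Pttg1 was low in them, so both values are a description with no test.

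With a replicate block by number, 11 members were higher in unstimulated KO, 1 was higher after stimulation, 40 rose in each genotype and 2 had a lower interaction. With a replicate block by genotype and number the counts were 40, 40 and 3, and Birc5 was lost and Racgap1 gained. Over all tested genes the unstimulated calls (453 higher, 607 lower) became 225 and 362 with the 6 libraries alone and 40 and 45 if the Y-positive libraries were dropped, with 399 lower under the Y-linked term, 356 lower under the mean filter of 5 RPKM and 279 higher without KO library 1 of both states. Leaving out 1 library gave 230 to 562 higher and 301 to 866 lower. The calls after stimulation (808 higher, 1021 lower) became 265 and 346 without library 3 of both groups, 611 lower without the Y-positive libraries, and 395 to 1144 higher and 560 to 1240 lower with 1 library left out. The 3686 falls in WT became 2454 under the mean filter. The interaction calls (247 higher, 234 lower) became 10 and 12 without the Y-positive libraries, 71 and 55 without library 3 of both stimulated groups, 164 higher under the mean filter, and 103 to 274 higher and 99 to 325 lower with 1 library left out. Depth limits Anln, Cenpe and Cenpf most, with as few as 46, 47 and 65 reads in a library.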
